A study of Rattus norvegicus with 12 samples.

Results

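The genes described here encode proteins of the mitochondrial ribosome, chosen as the named entries of the count table that start with Mrpl or Mrps and a number and that held at least 10 reads in at least 3 of the 12 libraries. Of 28727 named entries, 75 matched by name and 73 passed the count minimum, and all 73 were among the 14669 genes tested. Mrpl53 was listed at 0 in every library and Mrps21l had between 0 and 2 reads, so neither was a member. By their place in the mammalian particle, 46 members belong to the large subunit and 26 to the small subunit. Mrps30 and Mrps18a sit in the large subunit despite their names. Mrps36 was counted apart, since its product is now assigned to the oxoglutarate dehydrogenase complex.

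The RNA was that of INS-1 832/13, an insulin-secreting line derived from a rat insulinoma. The cells had received an adenovirus for GFP or for ChREBPβ, with glucose at 2 mM or at 11 mM, and were collected after 48 h. Each of the 4 groups (GFP in 2 mM, GFP in 11 mM, ChREBPβ in 2 mM and ChREBPβ in 11 mM) had 3 libraries, labelled a, b and c. ChREBPβ is the shorter, constitutively active isoform of the glucose-responsive transcription factor ChREBP, and every group carried a virus, so no untransduced cells entered a comparison. Overexpression from a virus in a tumour-derived line limits what the groups model. The labels do not say whether libraries a, b and c came from separate cultures (the study's text speaks of independent experiments), and if they did not, p-values measure only a technical spread. Libraries held 25754488 to 60531215 reads on named genes, and library a of ChREBPβ in 2 mM, with 28595982, was as shallow as the GFP libraries in 2 mM. All 9 β-cell markers examined were detected in every group. Of 11 markers of other pancreatic cells found in the table, Gcg, Ghrl and Sox9 passed the filter on low counts, and the others, among them Cpa1, Prss1, Krt19 and Ptprc, were at or near 0. The level of the rat Mlxipl gene, which encodes both ChREBP isoforms, fell with ChREBPβ in 2 mM, so this entry does not show the viral transgene and is no check of the labels.

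Mitochondria keep a small genome whose mRNAs all encode subunits of the respiratory chain and the ATP synthase, and they translate them on their own ribosomes. The ribosomal RNAs of these particles come from the mitochondrial genome, whereas every protein component is encoded in the nucleus, made in the cytosol and imported. Some of the proteins have counterparts in bacterial ribosomes and others are found only in mitochondria. In β-cells, respiration couples glucose metabolism to insulin secretion, so mitochondrial translation is part of the machinery by which these cells sense glucose.

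The first comparison asked how ChREBPβ changed these mRNAs in low glucose. With ChREBPβ in 2 mM, 17 of the 73 members were higher than with GFP and 0 were lower, by edgeR's quasi-likelihood test at an adjusted p (Benjamini-Hochberg) under 0.05 and at least a 1.2-fold change. Over all genes tested, 21% were higher and 23.2% lower by the same rule. The share of members that rose was therefore near that of all genes, whereas no member passed the rule for lower. With counts scaled by library totals only, the split was 7 higher and 3 lower, against 15.0% and 30.1% of all genes. The log2 fold change was positive for 61 members, with a median of 0.16 against -0.02 over all genes, and it ran from -0.24 to 1.10. The SD over members was 0.24 on the log2 scale against 0.78 over all genes. It was 0.25 over 72 cytosolic ribosomal proteins and 0.28 over 86 nuclear subunits of the respiratory chain. A spread narrower than that of all genes was thus not particular to the members. In bulk samples, fewer cells of a type and less RNA per cell cannot be told apart. At any fold change, 37 members passed the adjusted p in the upward direction and 6 in the downward direction, against 28.8% and 29.8% of all genes. Other features of the libraries moved with the virus. Of 9 β-cell markers, 7 were lower with ChREBPβ in 2 mM and 1, Slc2a2, was higher (log2 fold change 0.50, adjusted p = 1.67e-09). The level summed over the 9 was 14630 to 16513 CPM with GFP and 6194 to 6347 CPM with ChREBPβ. CPM are counts for each 1000000 of the library after scaling by the trimmed mean of M-values (TMM). Among markers of other pancreatic cells, Gcg, the precursor of glucagon made by α-cells, was at 1624 ± 39.1 CPM with GFP and 433 ± 6.08 CPM with ChREBPβ (log2 fold change -1.91, adjusted p = 5.65e-18), and Sox9, a factor of duct and progenitor cells, at 0.838 ± 0.219 and 8.19 ± 0.115 CPM (log2 fold change 3.26, adjusted p = 6.8e-13). The sum over the 11 such markers found was 1591 to 1669 CPM with GFP and 439 to 450 CPM with ChREBPβ. TMM factors were 1.01 to 1.06 in the GFP libraries and 0.958 to 0.977 in the ChREBPβ libraries. The part of these in the members' changes was not tested.

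Most of the changes were small, and a group of 4 well-counted genes stood at the top: Mrps34, Mrpl50, Mrpl12 and Mrps6. Mrps34 encodes a small subunit protein found only in mitochondria. Its normalised read count was 46.3, 49.6 and 50.2 CPM in libraries a, b and c of GFP in 2 mM, and 84.3, 87.4 and 91.9 CPM in those of ChREBPβ in 2 mM. All 3 ChREBPβ libraries lay above all 3 GFP libraries. The log2 fold change was 0.85 with an SE of 0.0617 (1.81-fold, adjusted p = 4.05e-10). In 11 mM the GFP libraries had 63.4, 54.9 and 65.8 CPM and the ChREBPβ libraries 84.6, 91.5 and 91.3 CPM. The groups were again apart, by a log2 fold change of 0.54 (SE 0.0595, adjusted p = 3.05e-07).

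Mrpl50 encodes a large subunit protein without a bacterial counterpart. Its level was 30.2, 34.7 and 31.1 CPM with GFP and 54.8, 56.8 and 56.9 CPM with ChREBPβ in 2 mM, and 43.6, 43.2 and 41.9 CPM with GFP and 58.1, 61.0 and 61.8 CPM with ChREBPβ in 11 mM. No library of one virus overlapped those of the other at either glucose concentration, and the log2 fold changes were 0.81 (SE 0.0537, adjusted p = 1.03e-10) in 2 mM and 0.49 (SE 0.0509, adjusted p = 1.12e-07) in 11 mM. Mrpl12, the protein of the flexible stalk that recruits translation factors, is also known to bind the mitochondrial RNA polymerase. Its level was 80.9, 86.5 and 89.4 CPM with GFP and 138, 148 and 150 CPM with ChREBPβ in 2 mM. In 11 mM it was 124, 108 and 121 CPM with GFP and 145, 173 and 170 CPM with ChREBPβ. The virus groups did not overlap at either concentration. The log2 fold changes were 0.76 (SE 0.0644, adjusted p = 4.2e-09) and 0.47 (SE 0.0627, adjusted p = 3.78e-06).

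Mrps6, the counterpart of a bacterial small subunit protein, was the least abundant of these 4. It was at 13.4, 15.1 and 15.8 CPM with GFP and 25.2, 21.7 and 24.2 CPM with ChREBPβ in 2 mM, and at 20.2, 16.6 and 16.7 CPM with GFP and 21.9, 27.4 and 26.4 CPM with ChREBPβ in 11 mM. The lowest ChREBPβ library exceeded the highest GFP library in both cases, though in 11 mM only by the step from 20.2 to 21.9 CPM. The log2 fold changes were 0.67 (SE 0.0974, adjusted p = 6.82e-06) in 2 mM and 0.50 (SE 0.0911, adjusted p = 0.000133) in 11 mM.

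**Figure D1:**
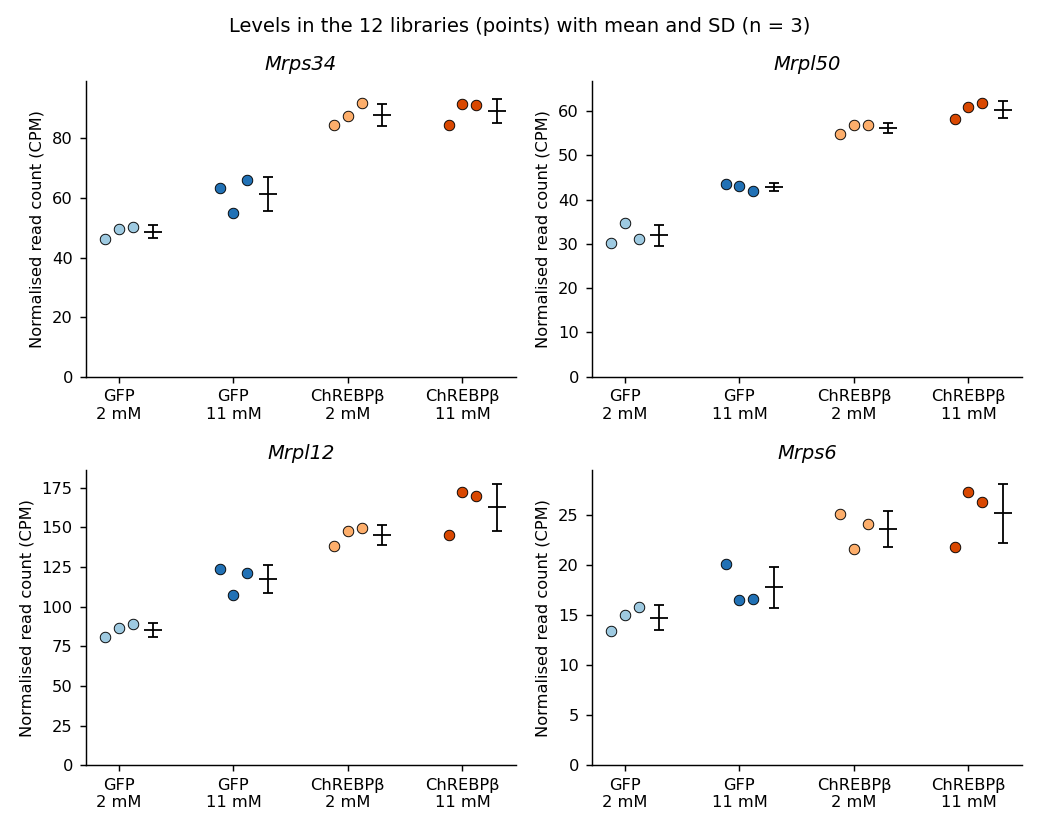
Normalised read count (CPM, vertical axis starting at 0) of Mrps34, Mrpl50, Mrpl12 and Mrps6 in each library of the 4 groups; points are libraries a, b and c from left to right, and the bar beside them is the mean with its SD (n = 3). In each panel the ChREBPβ points lie above the GFP points of the same glucose concentration, as for Mrps34 in 2 mM (48.7 ± 2.12 CPM with GFP and 87.9 ± 3.79 CPM with ChREBPβ).

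The promoters of the genes that moved most are shown because ChREBP binds paired E-box elements and because NRF1, factors of the ETS family and YY1 are known for acting at nuclear genes for mitochondrial proteins. RefSeq's promoter table for the GRCr8 assembly (250 bases before to 50 after a start site) matched 58 of the 73 members with 60 entries; Mrps34 was not matched. Both strands were searched for CACGTG (E-box), GCGCANGCG (NRF1), CCGGAAG (ETS) and AAGATGG (YY1), and matches are in capitals, in the orientation of the gene. Mrpl36 (chr1:31795072-31795371, minus strand), which had the highest log2 fold change but few reads, Mrpl50 (chr5:68668038-68668337, minus strand), Mrps6 (chr11:44778417-44778716, plus strand) and Mrpl12 (chr10:106256496-106256795, plus strand) rose, and Mrps18b (chr20:2842756-2843055, plus strand), with all 4 motifs, did not pass the test.
Mrpl36: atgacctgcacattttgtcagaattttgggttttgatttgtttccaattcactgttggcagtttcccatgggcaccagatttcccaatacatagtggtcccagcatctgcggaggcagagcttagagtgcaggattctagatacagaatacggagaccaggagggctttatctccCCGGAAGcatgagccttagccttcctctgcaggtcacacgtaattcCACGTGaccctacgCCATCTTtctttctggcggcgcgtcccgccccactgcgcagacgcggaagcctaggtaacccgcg
Mrpl50: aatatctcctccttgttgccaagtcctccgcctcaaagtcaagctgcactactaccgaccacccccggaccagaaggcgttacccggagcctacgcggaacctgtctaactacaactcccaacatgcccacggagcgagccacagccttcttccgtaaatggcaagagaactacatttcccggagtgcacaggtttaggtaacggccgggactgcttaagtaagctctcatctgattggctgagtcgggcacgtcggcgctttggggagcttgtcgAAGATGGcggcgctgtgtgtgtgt
Mrps6: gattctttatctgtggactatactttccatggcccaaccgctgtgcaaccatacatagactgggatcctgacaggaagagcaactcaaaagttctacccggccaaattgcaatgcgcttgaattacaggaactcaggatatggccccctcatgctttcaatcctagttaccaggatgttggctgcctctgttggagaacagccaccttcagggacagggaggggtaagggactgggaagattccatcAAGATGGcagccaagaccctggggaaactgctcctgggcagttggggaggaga
Mrpl12: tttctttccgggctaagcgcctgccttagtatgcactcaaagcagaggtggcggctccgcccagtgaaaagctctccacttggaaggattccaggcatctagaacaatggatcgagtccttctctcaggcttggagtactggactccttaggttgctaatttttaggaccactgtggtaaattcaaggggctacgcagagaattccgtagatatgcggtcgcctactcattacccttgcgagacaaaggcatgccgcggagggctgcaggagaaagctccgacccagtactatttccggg
Mrps18b: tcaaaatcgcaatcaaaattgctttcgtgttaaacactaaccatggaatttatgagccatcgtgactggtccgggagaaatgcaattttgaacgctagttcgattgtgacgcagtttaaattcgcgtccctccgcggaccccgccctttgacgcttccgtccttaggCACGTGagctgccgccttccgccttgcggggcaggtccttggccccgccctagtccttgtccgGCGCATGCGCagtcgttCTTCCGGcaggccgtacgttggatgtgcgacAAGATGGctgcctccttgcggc

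The promoter of Mrpl36 held the E-box, the ETS letters and the YY1 letters. That of Mrpl12 held none of the 4 motifs, and those of Mrpl50 and Mrps6 held only the YY1 letters, which began 26 bases after the start site in Mrpl50 and 3 bases before it in Mrps6. Among the 60 member promoters, 5 (8.33%) held the E-box, against 8.86% of the 11439 promoters of tested genes, and the medians of the log2 fold change in 2 mM were 0.06 for the members with it and 0.18 for those without. NRF1 letters stood in 10 of 60 (16.7% against 12.1%), ETS letters in 19 (31.7% against 15.8%) and YY1 letters in 16 (26.7% against 8.02%). Of the members called higher in 2 mM, 5 of 12 promoters held the YY1 letters, and of the other members 11 of 48. Over all 33469 promoters of the table the shares were 6.42% for the E-box, 5.80% for NRF1, 8.75% for ETS and 7.01% for YY1. Among promoters of all genes tested, the E-box stood in 11.6% of those called higher in 2 mM, 6.70% of those called lower and 8.81% of those not called. Among the members it stood in 1 of the 12 called higher and 4 of the other 48 (8.33% of each). A match is only a run of letters in this window.

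Mrpl36 had the highest log2 fold change, 1.10 (SE 0.29, adjusted p = 0.00292), but it rested on few reads. Its product is the small counterpart of a bacterial large subunit protein. It had 24, 16 and 19 reads with GFP and 43, 76 and 72 reads with ChREBPβ in 2 mM, which is 0.882, 0.467 and 0.609 CPM against 1.54, 1.35 and 1.29 CPM. The groups were apart in 2 mM. In 11 mM they overlapped, at 0.698 to 1.28 CPM with GFP and 0.972 to 1.37 CPM with ChREBPβ, and the log2 value was 0.27 (SE 0.256, adjusted p = 0.411). Mrpl1, a large subunit protein at the exit side for tRNA, was the other member near the count minimum, with 30 to 107 reads a library and a log2 value of 0.19 (SE 0.245, adjusted p = 0.525) in 2 mM.

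The other 12 members that rose in 2 mM were Mrpl16, Mrpl15, Mrps2, Mrpl28, Mrps25, Mrps5, Mrpl47, Mrpl43, Mrpl46, Mrps26, Mrpl19 and Mrps27, with log2 fold changes from 0.43 down to 0.27. Mrpl16, which lies near the site of peptide bond formation, led them with 28.4, 29.0 and 32.4 CPM with GFP and 39.4, 39.7 and 41.9 CPM with ChREBPβ. The groups did not overlap, and the log2 fold change was 0.43 (SE 0.0649, adjusted p = 1.13e-05). Mrps2 had the smallest SE among them. It was at 76.9 ± 0.852 CPM with GFP and 98.3 ± 2.15 CPM with ChREBPβ (SD, n = 3), a log2 fold change of 0.35 (SE 0.0409, adjusted p = 3.68e-07). The calls of 5 of these genes rested on single libraries, because their changes were just over 1.2-fold. Without library a of GFP in 2 mM the calls of Mrpl19, Mrpl43 and Mrps26 were lost, without library b that of Mrpl46 and without library c that of Mrps27. Leaving out library b of ChREBPβ in 2 mM ended the calls of Mrpl19 and Mrps26, and leaving out library c those of Mrpl19, Mrpl46 and Mrps27.

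**Figure D2:**
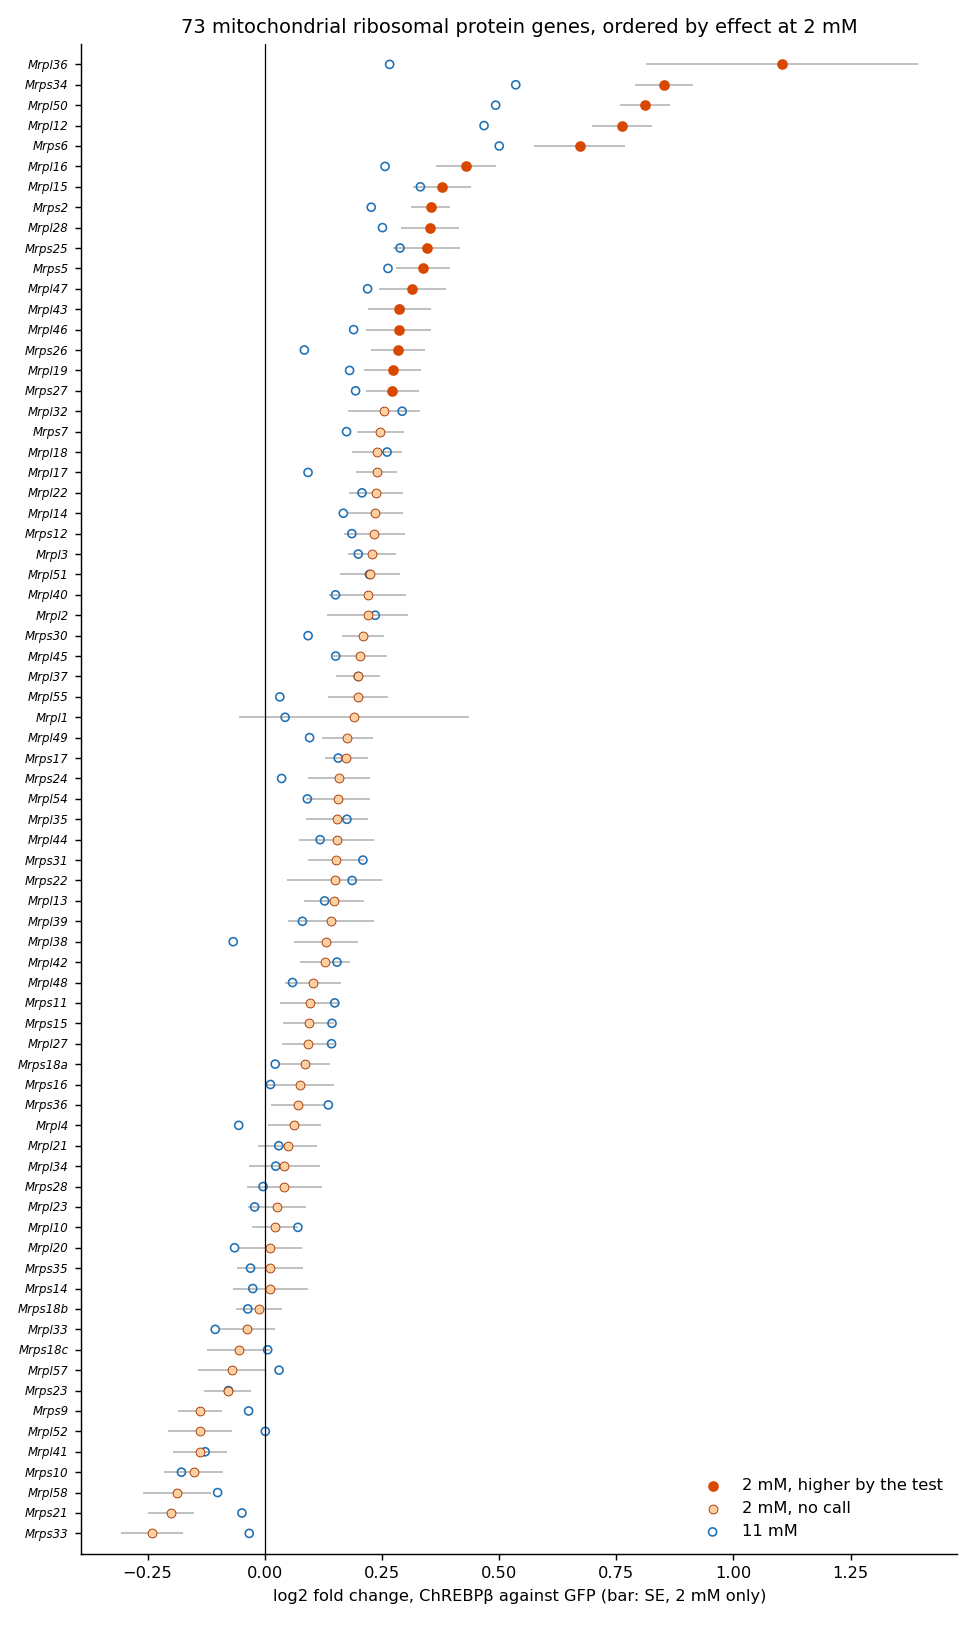
log2 fold change of ChREBPβ against GFP (horizontal axis) for each of the 73 members, ordered by the effect in 2 mM; filled points passed the test in 2 mM, pale points did not, bars are SEs in 2 mM and open blue circles are the effects in 11 mM. A group of 5 genes lies above 0.6, and the lowest, Mrps33, is at -0.24.

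Of the members with fixed roles in the particle, Mrpl12 and Mrpl16 were called higher in 2 mM. Differences between members were not tested. Of the stalk proteins, Mrpl12 rose whereas Mrpl10, which anchors the stalk, was at 55.5 ± 2.39 CPM with GFP and 56.4 ± 1.49 CPM with ChREBPβ in 2 mM (log2 value 0.02, adjusted p = 0.721). Around the peptidyl transferase centre, Mrpl16 rose, and the log2 values of Mrpl2 and Mrpl3 were 0.22 (adjusted p = 0.0347) and 0.23 (adjusted p = 0.000673), under the minimum of 1.2-fold. Mrps12, which shapes the decoding site, was at 0.23 (adjusted p = 0.00403) and Mrpl45, which ties the particle to the inner membrane, at 0.20 (adjusted p = 0.00502), again under the fold minimum. The paralogs Mrps18a, Mrps18b and Mrps18c, of which the first is built into the large subunit and the others into the small, had log2 values of 0.09, -0.01 and -0.06 with adjusted p of 0.179, 0.856 and 0.492. Mrps36 was at 0.07 (adjusted p = 0.299).

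The lowest values, singled out after they were seen, belonged to Mrps33, Mrps21 and Mrpl58. Mrps33, a small subunit protein found only in mitochondria, was at 49.2, 48.5 and 51.3 CPM with GFP and 41.7, 42.9 and 41.5 CPM with ChREBPβ in 2 mM. The groups were apart, with ChREBPβ lower, at a log2 value of -0.24 (SE 0.0663, adjusted p = 0.00415), but the change was under 1.2-fold. In 11 mM the same gene was at 51.3, 43.8 and 48.3 CPM with GFP and 42.5, 46.2 and 51.6 CPM with ChREBPβ, and the groups overlapped. Mrps21, the counterpart of a bacterial small subunit protein, was at 49.6 ± 1.58 and 43.2 ± 0.291 CPM in 2 mM (log2 value -0.20, adjusted p = 0.0015). Mrpl58, a large subunit protein that can also release peptides from stalled ribosomes, was at 31.5 ± 2.68 and 27.7 ± 0.752 CPM (log2 value -0.19, adjusted p = 0.033), and its groups overlapped.

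Counting members whose 3 ChREBPβ libraries all lay on one side of the 3 GFP libraries gave 38 higher and 7 lower in 2 mM, where 31.2% and 32.1% of all genes did so. By subunit, 10 of 46 large subunit genes and 7 of 26 small subunit genes were called higher, with medians of 0.20 and 0.12 on the log2 scale. Members with a bacterial counterpart gave 10 of 42 and a median of 0.18, and those found only in mitochondria 7 of 30 and a median of 0.15. The calls by subunit and by counterpart read against 21% of all genes called higher in 2 mM. The summed level of the 73 members was 3118, 3226 and 3254 CPM with GFP and 3591, 3626 and 3678 CPM with ChREBPβ in 2 mM, so that the groups did not overlap.

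In 11 mM, 8 members were higher with ChREBPβ and 0 lower, against 14.3% and 19.1% of all genes. They were Mrps34, Mrps6, Mrpl50, Mrpl12, Mrpl15, Mrpl32, Mrpl43 and Mrps25, of which Mrpl32 alone had not been called in 2 mM (log2 fold changes 0.25 in 2 mM and 0.29 in 11 mM); the difference between its effects did not pass the test (adjusted p = 0.886). The log2 value was positive for 57 members, with a median of 0.14 against -0.02 over all genes and a range from -0.18 to 0.54. Groups were apart for 30 members in the upward and 1 in the downward direction, against 26.4% and 29.7% of all genes. The count depended on single libraries. It was 5 without library b of GFP, 6 without library c of ChREBPβ, 13 without library a of GFP and 14 without library a of ChREBPβ. All of these calls were higher. Over all genes, 13.2%, 13.5%, 14.3% and 14.5% were higher under the same settings. The median log2 value was 0.08 without library b of GFP, where it exceeded that of all genes by 0.09, and 0.10 without library c of ChREBPβ. In the same direction, the summed member level of GFP was 3552, 3208 and 3500 CPM and that of ChREBPβ 3559, 3829 and 3891 CPM in libraries a, b and c. Library b of GFP and library a of ChREBPβ were thus the low ones of their groups.

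**Figure D3:**
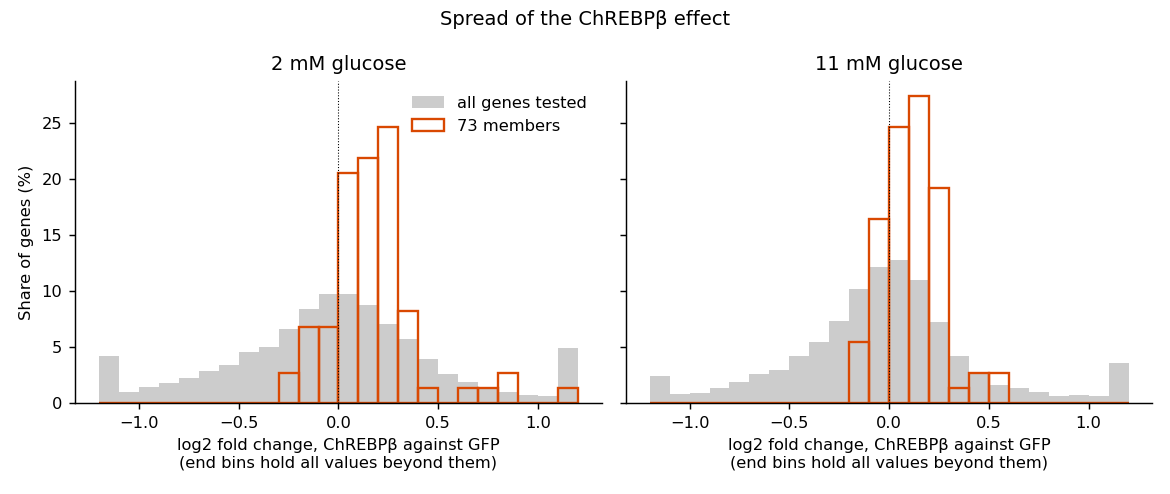
Share of genes (vertical axis, percent) by log2 fold change of ChREBPβ against GFP (horizontal axis, bins of 0.1, the end bins holding all values beyond them) in 2 mM and 11 mM; grey bars are the 14669 genes tested and outlined bars the 73 members. The members gather just above 0, with medians of 0.16 and 0.14, while all genes spread widely on both sides.

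The effects in 2 and 11 mM come from separate libraries, and across the 73 members they had a Pearson correlation of 0.851 and a Spearman correlation of 0.892, against 0.852 and 0.818 over all genes. This is a description across genes that share libraries and depth. The sign was the same for 63 members, and 50 had the larger value in 2 mM.

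Glucose alone was tested in the GFP cells. From 2 to 11 mM, 5 members rose and 0 fell, against 10.2% and 10% of all genes, and the groups were apart for 16 members upward and 3 downward, against 21.8% and 20.3%. The 5 were Mrpl12 (log2 fold change 0.46, SE 0.0645, adjusted p = 1.68e-05), Mrpl50 (0.42, adjusted p = 6.08e-06), Mrps34 (0.34, adjusted p = 0.0003), Mrpl38 (0.28, adjusted p = 0.00354) and Mrps6 (0.27, adjusted p = 0.0435). The values behind Mrpl12, Mrpl50, Mrps34 and Mrps6 are those given above; these comparisons share the GFP libraries with the comparisons of viruses. Mrpl38, a large subunit protein found only in mitochondria, was at 35.3, 38.5 and 45.5 CPM in 2 mM and 50.5, 46.4 and 47.8 CPM in 11 mM. The lowest value in 11 mM was just above the highest in 2 mM. Its call, like that of Mrps6, was lost without library a or b of GFP in 2 mM or library a of GFP in 11 mM, and that of Mrps6 also without library c of ChREBPβ in 2 mM. The call of Mrps6 was also lost with the replicate block and with edgeR's RLE factors, and both calls with upper quartile factors and with library totals. The median over the members was 0.08, and without library b of GFP in 11 mM it was 0.14. Without that library 10 members were called higher and 0 lower, against 10.3% and 9.76% of all genes.

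In the ChREBPβ cells the same step in glucose gave 0 members higher and 0 lower by the edgeR test, against 0.988% and 2.88% of all genes, and 1 member passed the adjusted p when no minimum fold was asked. DESeq2 also gave 0. Groups were apart for 14 members upward and 1 downward, against 14.0% and 14.9%. The median log2 value was 0.06. Levels of Mrps34, at 87.9 ± 3.79 CPM in 2 mM and 89.1 ± 3.91 CPM in 11 mM (SD, n = 3), differed by less than the spread between libraries (adjusted p = 0.906).

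The difference between the ChREBPβ effects in 11 and 2 mM was tested as an interaction. It was negative and passed the test for 3 members, and 0 passed with a positive sign, against 4.74% and 1.56% of all genes. They were Mrpl50 (-0.32 on the log2 scale, SE 0.0739, adjusted p = 0.0102), Mrps34 (-0.32, SE 0.0855, adjusted p = 0.0262) and Mrpl12 (-0.29, SE 0.0897, adjusted p = 0.0487). For each, the gap between the viruses was smaller in 11 mM, where the GFP level was higher, and the change with glucose in the ChREBPβ cells did not pass the test (adjusted p of 0.261, 0.906 and 0.131 for Mrpl50, Mrps34 and Mrpl12). The call of Mrpl50 held without any single library. That of Mrps34 was lost without library a of GFP in 2 mM, library a or c of GFP in 11 mM, library b or c of ChREBPβ in 2 mM or library a of ChREBPβ in 11 mM, with values between -0.39 and -0.26 over the alternatives. That of Mrpl12 was lost without library a or b of GFP in 2 mM, library a or c of GFP in 11 mM, any library of ChREBPβ in 2 mM or library a of ChREBPβ in 11 mM, with values between -0.35 and -0.22. The call of Mrpl12 was also lost with RLE and upper quartile factors.

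Other entries of the mitoribosome carry names outside the rule. Of Dap3, Ptcd3, Chchd1 and Gadd45gip1, only Gadd45gip1, a large subunit protein near the exit of the nascent chain, rose with ChREBPβ, by 0.47 in 2 mM (adjusted p = 1e-05) and 0.48 in 11 mM (adjusted p = 8.4e-06) on the log2 scale. In 2 mM the GTP-binding Dap3 was at 0.10 (adjusted p = 0.11), Ptcd3, at the entry of the mRNA, at 0.21 (adjusted p = 0.00039, under the fold minimum) and Chchd1 at 0.14 (adjusted p = 0.07). Ptcd3 rose with glucose in the GFP cells, by 0.34 (adjusted p = 5.9e-06). Aurkaip1 was not found under that name. The table also has mrpl9, mrpl11 and mrpl24 in lower case, which the rule does not take. Of these, mrpl9 rose with ChREBPβ in 2 mM (log2 fold change 0.57, adjusted p = 2.63e-09), and mrpl11 (-0.11) and mrpl24 (0.10) did not pass.

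Genes of the rest of mitochondrial translation were read from lists. In 2 mM, 6 of 24 genes for assembly and rRNA modification were higher with ChREBPβ and 3 lower, with a median log2 value of 0.15. Noa1, a GTPase needed for building the small subunit, rose by 0.86 (adjusted p = 9.4e-11), close to the members at the top, and Mrm3, a methyltransferase of the large rRNA, by 0.54 (adjusted p = 4.7e-06). Mettl15, a methyltransferase of the small rRNA, fell by 0.65 (adjusted p = 0.0048) and Mtg1, a GTPase of large subunit assembly, fell by 0.47 (adjusted p = 1.2e-05). Of 17 translation factors, 3 were higher and 3 lower, with a median of -0.02. The elongation factors Gfm1 and Tsfm rose by 0.31 and 0.29 (adjusted p = 2.7e-06 and 0.0013), and Gfm2, a ribosome recycling factor, and Mtrfr, a rescue factor, fell by 0.50 and 0.49 (adjusted p = 5.4e-07 and 0.0068).

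Of 16 mitochondrial aminoacyl-tRNA synthetases, which charge tRNAs with amino acids, 1 was higher (Fars2, 0.33, adjusted p = 0.00017) and 1 lower (Nars2, -0.27, adjusted p = 0.027), with a median of -0.12. Of 14 genes for transcription of mitochondrial DNA and RNA processing, 5 were higher and 0 lower, led by Elac2, which cuts tRNAs from their precursors (0.63, adjusted p = 1.7e-10), and by Tfam, which packages and transcribes the genome (0.36, adjusted p = 8.8e-08). Among 12 regulators of mitochondrial biogenesis, 7 were higher and 2 lower, with Myc at 1.49 (adjusted p = 2.6e-15), the coactivator Ppargc1a at 1.48 (adjusted p = 9.6e-12), the nuclear receptor Esrrg at -0.55 (adjusted p = 9.6e-05) and Mlxipl at -0.33 (adjusted p = 2e-05). The Mlxipl entry does not show the viral transgene, so its fall is no measure of total ChREBP. For comparison, cytosolic ribosomal proteins gave 60 higher and 1 lower of 72 in 2 mM with a median of 0.40, and nuclear subunits of the respiratory chain 17 higher and 7 lower of 86 with a median of 0.14. All of these counts read against 21% higher and 23.2% lower over all genes.

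In 11 mM most of the same lists had fewer calls, as did all genes (14.3% higher and 19.1% lower). Assembly and rRNA modification gave 2 higher and 1 lower of 24, with 11 values positive and a median of -0.02. Noa1 rose by 0.58 and Mtg1 fell by 0.39, while Mrm3 (0.22) and Mettl15 (-0.21) were not called. Translation factors gave 0 higher and 3 lower of 17, and Gfm1 (0.14), Tsfm (0.03) and Mtrfr (-0.11) were not called. The synthetases gave 1 higher and 1 lower of 16, as in 2 mM. Cytosolic ribosomal proteins gave 43 higher and 1 lower of 72, and nuclear subunits of the respiratory chain 19 higher and 1 lower of 86. Transcription and RNA processing gave 2 higher and 0 lower of 14, with Elac2 at 0.30 and Tfam, not called, at 0.23. The regulators gave 4 higher and 1 lower of 12, with Ppargc1a at 1.13 and Myc at 0.44. Whether a gene's effect differed between the glucose concentrations rests on the interaction test and not on these calls.

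**Figure D4:**
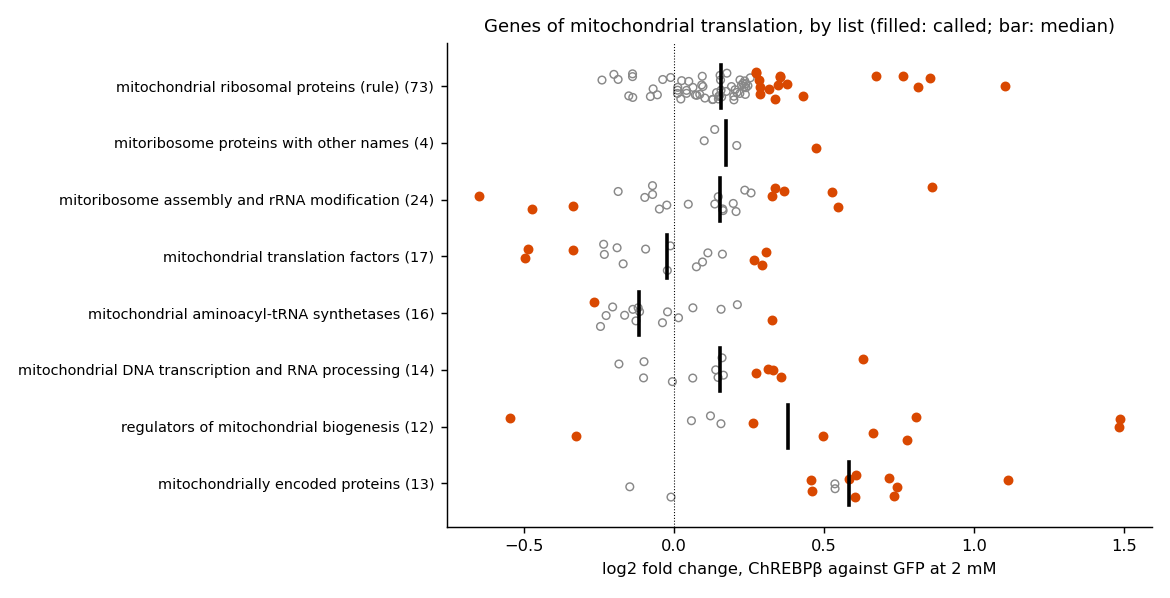
log2 fold change of ChREBPβ against GFP in 2 mM (horizontal axis) for the 73 members and for 7 lists of genes of mitochondrial translation and its regulation (rows, with the number of genes tested); filled points passed the test in either direction, open points did not, and the vertical bar is the median. The medians run from -0.12 for aminoacyl-tRNA synthetases to 0.58 for the mRNAs encoded in the mitochondrial genome.

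The mRNAs that these ribosomes translate are encoded in the mitochondrial genome. In 2 mM, 9 of the 13 were higher with ChREBPβ and 0 lower, with a median log2 value of 0.58, and in 11 mM 1 was higher and 1 lower. Mt-nd1, a subunit of complex I, rose by 1.11 (adjusted p = 0.00044) and Mt-cyb, the cytochrome of complex III, by 0.74 (adjusted p = 0.003) in 2 mM. Their GFP libraries in 2 mM varied far more than those of the members: the sum over the 13 mRNAs was 10883, 13065 and 19626 CPM with GFP and 19079, 20842 and 22822 CPM with ChREBPβ from the lowest to the highest library, so the groups overlapped.

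**Figure D5:**
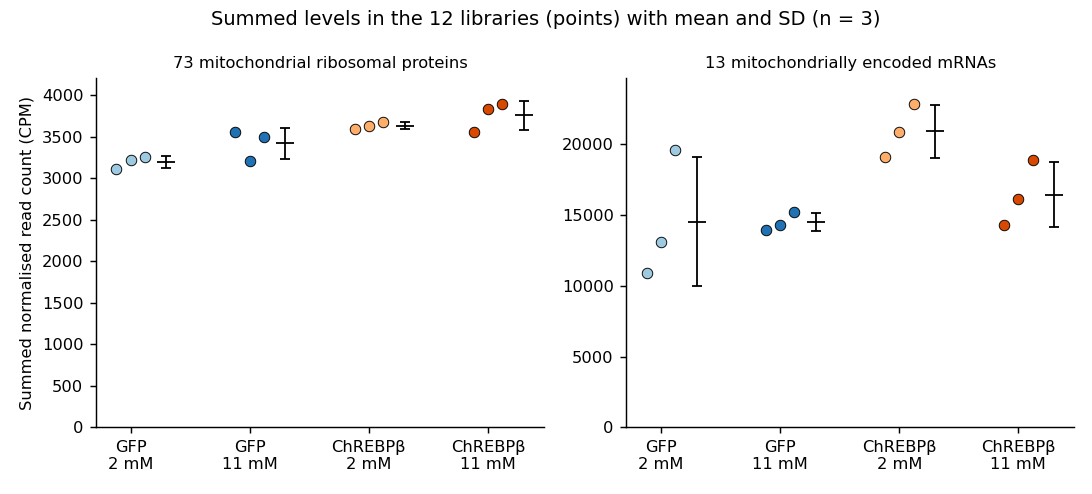
Summed normalised read count (CPM, vertical axes starting at 0) of the 73 members in libraries a, b and c (left) and of the 13 mitochondrially encoded mRNAs in the libraries of each group ordered from lowest to highest (right); bars are the mean and SD (n = 3). The members' sum in 2 mM is 3199 ± 72.0 CPM with GFP and 3632 ± 43.8 CPM with ChREBPβ without overlap, whereas the mitochondrially encoded sums overlap.

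Some members share a start region with a gene on the other strand. In the GRCr8 annotation, 17 of the 58 matched members (29.3%) had the start site of a neighbour on the opposite strand within 1000 bases, against 15.3% of tested genes. There were 14 such pairs with both genes tested, of which 1, Mrpl46 and Mrps11, joins 2 members. Of the 13 neighbours that are no members, 5 were called higher with ChREBPβ in 2 mM and 0 lower, against 22.6% and 19.0% of the 944 tested genes that lie in such pairs. In 0 pairs were both genes called higher. Mrpl46 and Mrps11, named here after their values were seen, encode a protein of each subunit. Mrpl46 rose from 27.7 ± 2.77 to 33.7 ± 1.5 CPM in 2 mM (log2 fold change 0.29, adjusted p = 0.0016), and Mrps11 was at 43.5 ± 1.51 and 46.4 ± 3.46 CPM (log2 value 0.10, adjusted p = 0.213).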

How the data were processed

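RNA from INS-1 832/13 cells was amplified and sequenced by the authors, who deposited raw read counts per gene; the submitters' notes name Rnor_6.0 and edgeR, and the aligner and the strand setting of counting are not given in the sources used here. The deposited group means in the same table were not used. One entry without a gene name held about 0.005% of the counts and was left out. Antisense or overlapping genes cannot be told apart without strand.

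Here, counts of all 12 libraries entered 1 fit in edgeR 4.0.16 (R 4.3.3): filterByExpr by group, TMM factors, the quasi-likelihood test, Benjamini-Hochberg adjustment over the 14669 genes tested, and a minimum of 1.2-fold, as in the study's methods. SEs were taken from the log2 fold change and the F statistic (absolute value over the root of F). The libraries of a group differed by more than sampling noise. Figures were drawn in Python 3.11.15. Members and lists were chosen with earlier results of these data known. Genes named are the members of fixed role, the 4 largest called changes per comparison, all interaction calls among members and low-count members. Per list, the 2 largest called changes per direction in 2 mM were named. Other genes are said to be chosen after their values were seen, or complete a count. Alternatives were DESeq2 1.42.0, other scalings, filters and fold minimums, a replicate block, 2-group fits and leaving out each library. Totals of 25754488 to 60531215 reads a library left Mrpl1 and Mrpl36 as the members whose counts limit precision.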

Additional observations from a re-analysis of the deposited data

Results flagged for a closer look

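The effect of ChREBPβ differed between the 2 glucose concentrations, by the interaction test of edgeR, for 7 of the genes named. The effect in 11 mM minus that in 2 mM was -0.29 for Mrpl12, -0.32 for Mrpl50 and -0.32 for Mrps34 on the log2 scale. It was -0.27 for mrpl9, the lower-case entry for another large subunit protein (adjusted p = 0.0146), -0.27 for the assembly GTPase Noa1 (adjusted p = 0.033), -0.33 for the tRNA-processing enzyme Elac2 (adjusted p = 0.0015) and -1.05 for Myc (adjusted p = 3.5e-09). All 7 rose with ChREBPβ in 2 mM and had a smaller increase in 11 mM. Noa1, Elac2 and Myc were named for their large changes in 2 mM, and the test uses those same libraries. Their shared direction is thus partly set by that choice. Negative interaction calls were made for 3 of 24 assembly genes, 2 of 14 transcription and processing genes and 3 of 12 regulators. Positive calls were 0 in each of these lists. The 17 translation factors, 16 synthetases, 13 mitochondrially encoded mRNAs and 4 mitoribosome proteins of other names had 0 interaction calls in either direction. Over all genes, 4.74% had a negative call and 1.56% a positive one. Of 22 alternatives, the call was lost under 14 for Noa1, 12 for Mrpl12, 11 for mrpl9, 8 for Mrps34, 2 for Mrpl50, 2 for Elac2 and 0 for Myc. Those of Noa1 and mrpl9 were lost with DESeq2 and every other scaling tried, and that of Mrpl12 with RLE and upper quartile factors. Groups of 3 libraries are too small for a test of single outlying libraries.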

How the results depend on the processing

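Over 77 named gene results that passed the test, 0 changed sign in 1764 values under the alternatives and 229 fell under the threshold. Alternatives that changed only the fold minimum or the fold tested against kept the same estimates, so the sign could not change there. Some of the libraries left out lay outside the comparison concerned. Among named genes that did not pass, sign changes occurred in 2 mM for Mrpl10 (-0.036 with upper quartile factors, -0.077 with library totals, -0.0098 to 0.051 when 1 library was left out), Mrps11 (-0.00299 with library totals), Mrps18a (-0.014 with library totals), Mrps36 (-0.029 with library totals) and Mrps18b (-0.042 to 0.017 when 1 library was left out). Counts of members called, in the order ChREBPβ in 2 mM, ChREBPβ in 11 mM, glucose in GFP and interaction, were 17, 8, 5 and 3, and became 43, 34, 17 and 3 with no minimum fold (and 1 for glucose in ChREBPβ), 5, 0, 0 and 0 at 1.5-fold, 8, 4, 2 and 0 in the test against a fold change of 1.2, and 10, 4, 3 and 3 with library totals only. These counts pool both directions. In 2 mM with no minimum fold, 37 members were higher and 6 lower, against 28.8% and 29.8% of all genes. At 1.5-fold the split was 5 and 0 (9.21% and 11.9%), and in the test against 1.2-fold 8 and 0 (14.4% and 16.4%). In 11 mM these settings gave 33 and 1 (23.6% and 26.2%), 0 and 0 (6.79% and 8.32%) and 4 and 0 (9.06% and 11.1%). With upper quartile factors the counts were 12, 5, 3 and 2. The split in 2 mM was 11 higher and 1 lower, against 17.3% and 27.0% of all genes. In 11 mM it was 5 and 0 (12.6% and 21.4%), and with library totals 4 and 0 (10.4% and 25.2%). The median log2 value was 0.10 in 2 mM with upper quartile factors, and with library totals 0.058 in 2 mM and 0.052 in 11 mM. The median minus that of all genes was 0.17 in 2 mM and 0.15 in 11 mM with TMM and under each of these 2 scalings. A change of scaling shifts all genes by nearly the same amount, so this difference cannot show whether the result depends on it. DESeq2 gave 17, 12, 5 and 3, against 21.3%, 15.3% and 9.98% of all genes higher and 4.61% with a negative interaction. Leaving out 1 library gave 14 to 19, 5 to 14, 3 to 10 and 1 to 4, and the median ran from 0.078 to 0.18 for ChREBPβ in 11 mM and from 0.056 to 0.14 for glucose in GFP. The replicate letters did not pair the libraries: deviations of same-letter libraries correlated between -0.22 and 0.13. Those of libraries with different letters correlated between -0.20 and 0.29. The highest was that of library b of GFP with library a of ChREBPβ, both in 11 mM. With the replicate block the counts were 17, 9, 4 and 3, against 21.0%, 14.2% and 10.2% of all genes higher and 4.72% with a negative interaction. Low reads limited Mrpl36 and Mrpl1 alone among the members.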
